A study of Drosophila melanogaster with 12 samples.

Results

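INE-1, listed in the tables as DNAREP1_DM:Penelope:LINE, is the single repeat described here, 1 of 215 transposon elements in the tables. It was chosen by its measured share of transposon reads and its H3K23ac per H3 in the knockdowns, so these levels are given as a description without a test. Only the comparisons of enok_KD with GFP_KD were tested, in a fit of all 203 elements with a mean of at least 10 reads per library. INE-1 passed this filter, with 16589 to 33879 reads per library.

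INE-1, also known as DINE-1, is a short repeat without coding capacity that spread in an ancestor of Drosophila melanogaster and is no longer active. Its many copies have diverged from each other and are concentrated in pericentromeric heterochromatin and on chromosome 4. The tables label it Penelope:LINE, although INE-1 is now generally grouped with the Helitron-like rolling-circle elements, which move without reverse transcription. Enok is the acetyltransferase that places most of the acetyl mark on lysine 23 of histone H3 (H3K23ac), a mark linked to active transcription, whereas total H3 reports nucleosomes regardless of the mark.

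ChIP-seq was performed on pooled ovaries of adult females 2 to 3 days old, after RNAi at 29°C, with antibodies against H3 and against H3K23ac. The study's methods give 2 to 3 days at 29°C for RNAi driven by MTD-Gal4, a different set of drivers from that used here. In enok_KD ovaries the hairpin P{TRiP.HMS02634}attP2 against enok was expressed, and in GFP_KD ovaries, the control, the hairpin P{VALIUM20-EGFP.shRNA.1}attP2. Both knockdowns carried the same pair of drivers, tj-GAL4, which is active in somatic cells of the ovary, and GAL4::VP16-nos.UTR inserted at CG6325[MVD1], which is active in the germline. There were 2 libraries per antibody and knockdown, 8 of the 12 in the series, while input DNA (4 libraries) was not analysed here. Each knockdown rests on 1 hairpin line. The libraries are from whole ovaries, so fewer cells that carry a mark and less of the mark per cell cannot be told apart. The level of enok itself cannot be read from these tables.

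The libraries held 411139 to 628808 transposon reads for H3 and 199303 to 370429 for H3K23ac. Over the elements, the log2 difference between H3 replicates had an SD of 0.33 in enok_KD and 0.19 in GFP_KD. For H3K23ac this SD was 0.45 in enok_KD and 0.21 in GFP_KD, so the replicates of enok_KD were less alike.

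The first question was how much of the transposon signal came from INE-1. In H3K23ac libraries INE-1 made up 8.32% (95% Wilson interval 8.20 to 8.45) and 10.4% (10.3 to 10.6) of transposon reads in enok_KD replicates 1 and 2, against 9.15% (9.05 to 9.24) and 9.34% (9.23 to 9.44) in GFP_KD. In H3 libraries its share was 4.0% (3.94 to 4.06) and 4.94% (4.88 to 5.01) in enok_KD, against 4.49% (4.43 to 4.54) and 4.49% (4.44 to 4.55) in GFP_KD. For both antibodies, 1 enok_KD library thus lay below and 1 above both GFP_KD libraries. The intervals cover counting error only, and the 2 enok_KD replicates lay outside each other's interval. The share of INE-1 in all 4 H3K23ac libraries exceeded that in all 4 H3 libraries.

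**Figure D1:**
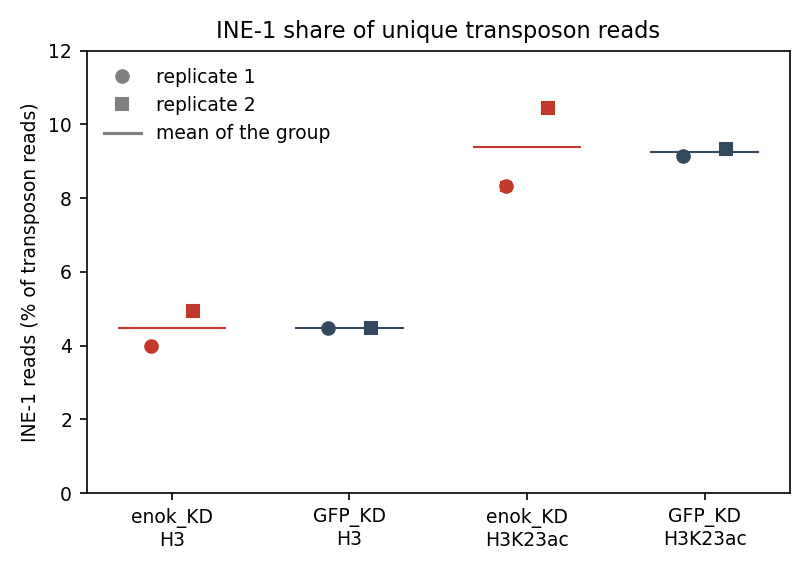
INE-1 reads as a percentage of all transposon reads in the 8 libraries, by knockdown and antibody; circles and squares are replicates 1 and 2 with 95% Wilson intervals, mostly smaller than the symbols, and lines are group means. The H3K23ac libraries sit between 8.32% and 10.4%, above the H3 libraries at 4.0% to 4.94%, and in each antibody the enok_KD libraries lie on either side of the GFP_KD ones.

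Ordered by mean share, the groups were enok_KD H3K23ac (9.38% ± 1.5), GFP_KD H3K23ac (9.24% ± 0.14), GFP_KD H3 (4.490% ± 0.0044) and enok_KD H3 (4.47% ± 0.67; SD, n = 2 each). The 2 groups of each antibody are neighbours in this order and overlapped. INE-1 had rank 2 of all elements in each H3K23ac library, behind only ROO_I, the internal part of the LTR retrotransposon roo. In each H3 library its rank was 4, behind ROO_I, the satellite entry SAR_DM and R1_DM, a LINE inserted into ribosomal RNA genes. A share counts reads that map to 1 position over all copies and is not per length, so it does not compare chromatin per copy between elements.

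Within the reads labelled LINE, INE-1 took 23.1% and 31.9% for H3K23ac in enok_KD, against 25.2% and 26.4% in GFP_KD. For H3 it took 9.85% and 13.5% of these reads in enok_KD, against 10.8% and 10.6% in GFP_KD. Between 23.1% and 31.9% of the H3K23ac reads counted as LINE thus came from a repeat that carries this label but is not generally regarded as a LINE. Without INE-1, the LINE elements held 27.7% and 22.3% of all H3K23ac transposon reads in enok_KD, against 27.1% and 26.0% in GFP_KD.

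Next, H3K23ac was related to H3, which cancels the length and copy number of an element. With library sizes scaled by TMM, which sets the typical element to no difference between libraries, the log2 ratio of H3K23ac to H3 at INE-1 was 1.08 and 1.12 in enok_KD when libraries of the same number were paired. It was 1.08 and 1.16 in GFP_KD. The means were 1.10 ± 0.033 in enok_KD and 1.12 ± 0.052 in GFP_KD (SD, n = 2), that is, 2.15-fold and 2.17-fold, and the 2 knockdowns overlapped. The study does not state that libraries of the same number came from the same chromatin, and the SD rests on that pairing. With the numbers crossed, the ratios were 0.87 and 1.33 in enok_KD and 1.11 and 1.14 in GFP_KD. The means are the same under either pairing, but the spread in enok_KD is not.

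INE-1 stood high among the elements without being at the top. Its log2 ratio ranked 25 of 203 in enok_KD, with 88.1% of the other elements below it, and 31 of 203 in GFP_KD, with 85.1% below. The median element had 0.045 in enok_KD and 0.14 in GFP_KD. Among the 84 elements with a mean of at least 1000 reads, INE-1 ranked 7 in enok_KD and 11 in GFP_KD. Among the 10 elements with the highest shares its rank was 2 in enok_KD, where FB4_DM, a foldback DNA transposon, was higher (1.77), and 3 in GFP_KD, where FB4_DM (1.73) and ROO_I (1.27) were higher. ROO_I had 1.04 in enok_KD. The other 7 of these 10 elements were lower than INE-1 in both knockdowns.

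Those 7 abundant elements spanned a wide range. R1_DM had −2.46 in enok_KD and −2.27 in GFP_KD, and the related LINE DMRT1B had −1.22 and −1.12 in the same order. SAR_DM had −1.29 in enok_KD and −0.34 in GFP_KD. HETA, a retrotransposon that maintains telomeres, had 0.17 in enok_KD and 0.28 in GFP_KD, and the jockey-type LINE FW_DM had 0.18 in enok_KD and −0.21 in GFP_KD. Closest to INE-1 among these 7 in both knockdowns was NOMAD_I, the internal part of an LTR retrotransposon, with 1.03 in enok_KD and 0.60 in GFP_KD. The jockey-type LINE DOC came next in enok_KD with 0.69, but with 0.23 in GFP_KD it lay below HETA. These 7 were grouped by ratios below that of INE-1, whereas ROO_I, which had the largest share, had a higher ratio than each of them in both knockdowns. Whether share and ratio are related was not tested.

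INE-1 lay well above the median of the class it is labelled with. The 40 other LINE elements tested had a median log2 ratio of −0.22 in enok_KD and −0.44 in GFP_KD, and only 2 of them in enok_KD and 3 in GFP_KD lay above INE-1. The 29 DNA transposons, which move by cutting and pasting, had medians of 0.73 in enok_KD and 0.85 in GFP_KD. Of these, 10 in enok_KD and 11 in GFP_KD lay above INE-1, so it fell within their range of −0.11 to 1.92 in enok_KD and 0.14 to 2.01 in GFP_KD. The upper ends of these ranges were set by entries with means of only 34.75 reads (enok_KD) and 30.25 reads (GFP_KD). The 117 LTR elements had medians of −0.085 in enok_KD and −0.12 in GFP_KD, with 8 and 10 of them above INE-1 in that order. These are counts and medians of levels, with no test.

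**Figure D2:**
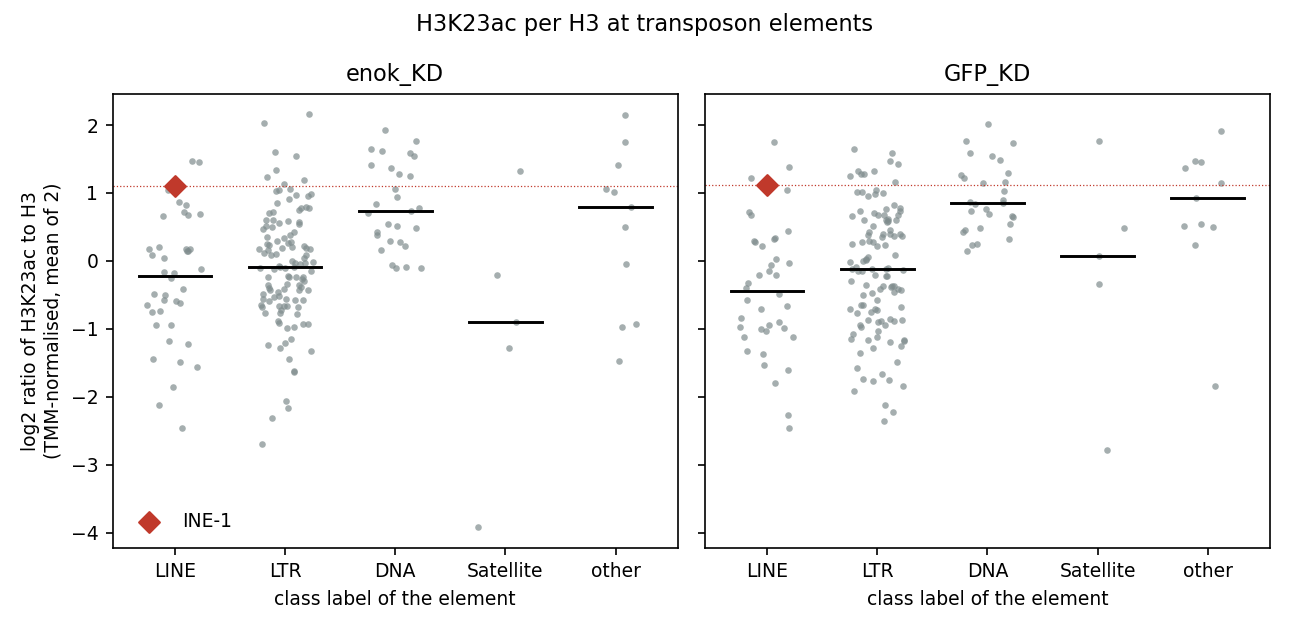
Log2 ratio of H3K23ac to H3 (TMM-normalised, mean of 2 replicates) for the 203 elements tested, by class label, in enok_KD (left) and GFP_KD (right); black bars are class medians without INE-1, and the dotted line marks INE-1. INE-1 (red diamond, 1.10 in enok_KD and 1.12 in GFP_KD) lies near the top of the LINE column and within the DNA column in both knockdowns.

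Entries that share the family label of INE-1 or its known concentration in heterochromatin were examined next. The counts do not give the positions of the reads. PENELOPE, the only other entry with the family label of INE-1, had an even higher ratio, 1.46 ± 0.16 in enok_KD and 1.75 ± 0.15 in GFP_KD (SD, n = 2). It rests on far fewer reads, 53 and 113 for H3K23ac in enok_KD against 134 and 100 in GFP_KD. The only rolling-circle entry, Helitron1_DM, had 0 to 5 reads in a library and was not tested. PROTOP, PROTOP_A and PROTOP_B, DNA elements of the P family that are abundant in heterochromatin, had 0.17, 0.22 and 0.29 in enok_KD and 0.32, 0.14 and 0.23 in GFP_KD, all below INE-1.

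The neighbours of INE-1 in the order of ratios were BLOOD_LTR (1.13) above and TC1-2_DM (1.06) below in enok_KD. In GFP_KD they were HOBO (1.15) above and BS4_DM (1.04) below. In enok_KD the SD of the replicates was 0.060 at BLOOD_LTR and 0.050 at TC1-2_DM. In GFP_KD it was 0.021 at HOBO and 0.27 at BS4_DM. Neighbours were picked by the order of this same ratio, so their closeness to INE-1 follows from the choice and is not a result. BS4_DM had a mean of only 31.75 reads.

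The elements whose levels over the 8 libraries were most like those of INE-1 were sought by the root mean square difference of log2 normalised read counts, each centred on its own mean, among elements with a mean of at least 100 reads. The nearest were DM176_I (0.099) and the I element I_DM (0.12), followed by Transib-N1_DM, DM297_LTR and DM176_LTR (0.13 to 0.14). They included LTR, LINE and DNA entries. Their log2 ratios ranged from 0.91 for DM176_I to 1.28 for Transib-N1_DM in enok_KD, and from 1.04 for DM176_I to 1.43 for DM297_LTR in GFP_KD. The difference between H3K23ac and H3 is part of the profile used for the choice. Ratios near that of INE-1 therefore follow from it and are not a separate likeness.

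INE-1 was also set against piRNA clusters of the same libraries, by the H3K23ac reads per H3 read of libraries with the same number. INE-1 had 0.93 and 1.5 in enok_KD, against 1.38 and 0.98 in GFP_KD. The 4 piRNA clusters of chromosome 4, an INE-1-rich chromosome, had 0.58 and 0.79 in enok_KD and 0.84 and 0.59 in GFP_KD together. All 142 clusters had 0.44 and 0.66 in enok_KD and 0.54 and 0.37 in GFP_KD, and the transposon elements without INE-1 had 0.43 and 0.67 in enok_KD and 0.65 and 0.45 in GFP_KD. Within each of the 4 pairs INE-1 was thus highest and the chromosome 4 clusters second. Depth sets the level within a pair, so only values of the same pair compare, and an INE-1 read inside a cluster may be in both tables.

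The main comparison asked whether H3K23ac per H3 at INE-1 was altered upon enok knockdown. The fitted log2 fold change of enok_KD over GFP_KD was −0.019 ± 0.20 (SE; edgeR adjusted p = 0.952), with a 95% interval of −0.47 to 0.43, or 0.72-fold to 1.35-fold. The interval gives the uncertainty of this estimate and not the size of change that could be called, and TMM takes out any change shared by most elements. Of the 203 elements, 0 (0%) were called with edgeR at an adjusted p-value of 0.05, as compared with 29 at an unadjusted p-value of 0.05 and 5 called with DESeq2. With edgeR, 22 were called without enok_KD H3K23ac replicate 2 and 65 with a replicate block, which assumes that libraries of the same number are pairs, and INE-1 was not among either. In the main fit only 2 elements had a fitted change closer to 0 than INE-1, a place not recomputed under other settings. The 10th and 90th percentiles of all elements in that fit were −0.53 and 0.51. No direction can be read from the value, which was 0.10 without enok_KD H3K23ac replicate 1 and −0.15 without replicate 2, 0.073 without enok_KD H3 replicate 2, and 0.0081 and 0.0075 without GFP_KD H3 replicate 1 and GFP_KD H3K23ac replicate 2. It was also 0.028 under total count scaling, and 0.025 both under DESeq2 size factors and with DESeq2.

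Other abundant elements had fitted values farther from 0, although none of the 10 with the highest shares was called in this edgeR fit or with DESeq2. The fitted log2 fold change was −0.24 ± 0.17 at ROO_I, −0.93 ± 0.27 at SAR_DM, −0.16 ± 0.34 at R1_DM and 0.47 ± 0.21 at DOC (SE; edgeR adjusted p = 0.504, 0.196, 0.831 and 0.327). Without enok_KD H3K23ac replicate 2, SAR_DM (−1.23, edgeR adjusted p = 0.0217) and DOC (0.62, edgeR adjusted p = 0.0490) were called among these 10. Over the 40 other LINE elements the median was 0.19, with 15 below 0, while the 29 DNA transposons had a median of 0.023, with 14 below 0. The 117 LTR elements had a median of 0.079, with 51 below 0, and the 5 satellite entries one of −0.93, with all 5 below 0. The median of all elements was 0.052. Differences between classes were not tested. The satellite ratios mix both antibodies. Fitted log2 fold changes for H3 and H3K23ac alone were 0.77 and −0.16 at SAR_DM, 1.01 and −0.12 at DMSAT6. They were 0.54 and −0.79 at RSP, 0.70 and 0.25 at HSATII (mean of 22 reads), and −0.021 and −0.29 at HETRP_DM. Of these, only H3 at DMSAT6 was called (edgeR adjusted p = 0.0354).

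Each antibody was next examined alone, because a change of H3 moves the ratio. For H3, INE-1 had 16435 and 18922 normalised reads in enok_KD, against 15539 and 15306 in GFP_KD. Both enok_KD libraries were higher, and the fitted log2 fold change was 0.20 ± 0.14 (SE; 95% interval −0.12 to 0.52; edgeR adjusted p = 0.348). It did not pass, whereas 5 of 203 elements (2.46%) did, all higher in enok_KD. Under total count scaling, which moved the median of all elements by −0.21, 48 elements were called, 6 higher and 42 lower, and INE-1 was at −0.0059, so that the difference at INE-1 depends on the scaling. It was 0.0092 without enok_KD H3 replicate 2 and 0.081 without GFP_KD H3 replicate 1.

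For H3K23ac, INE-1 had 34684 and 41254 normalised reads in enok_KD, against 32952 and 34156 in GFP_KD. The enok_KD libraries were again higher, by a fitted log2 fold change of 0.18 ± 0.14 (SE; 95% interval −0.14 to 0.50; edgeR adjusted p = 0.589). With edgeR 0 of 203 elements (0%) were called, as compared with 32 at an unadjusted p-value of 0.05 and 4 with DESeq2. The fitted change at INE-1 was 0.022 under total count scaling, which moved the median element by −0.16, and it was 0.30 and 0.048 without enok_KD H3K23ac replicate 1 and replicate 2. The fitted values of H3 and H3K23ac at INE-1 were thus close to each other and neither passed, which leaves the ratio near 0.

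**Figure D3:**
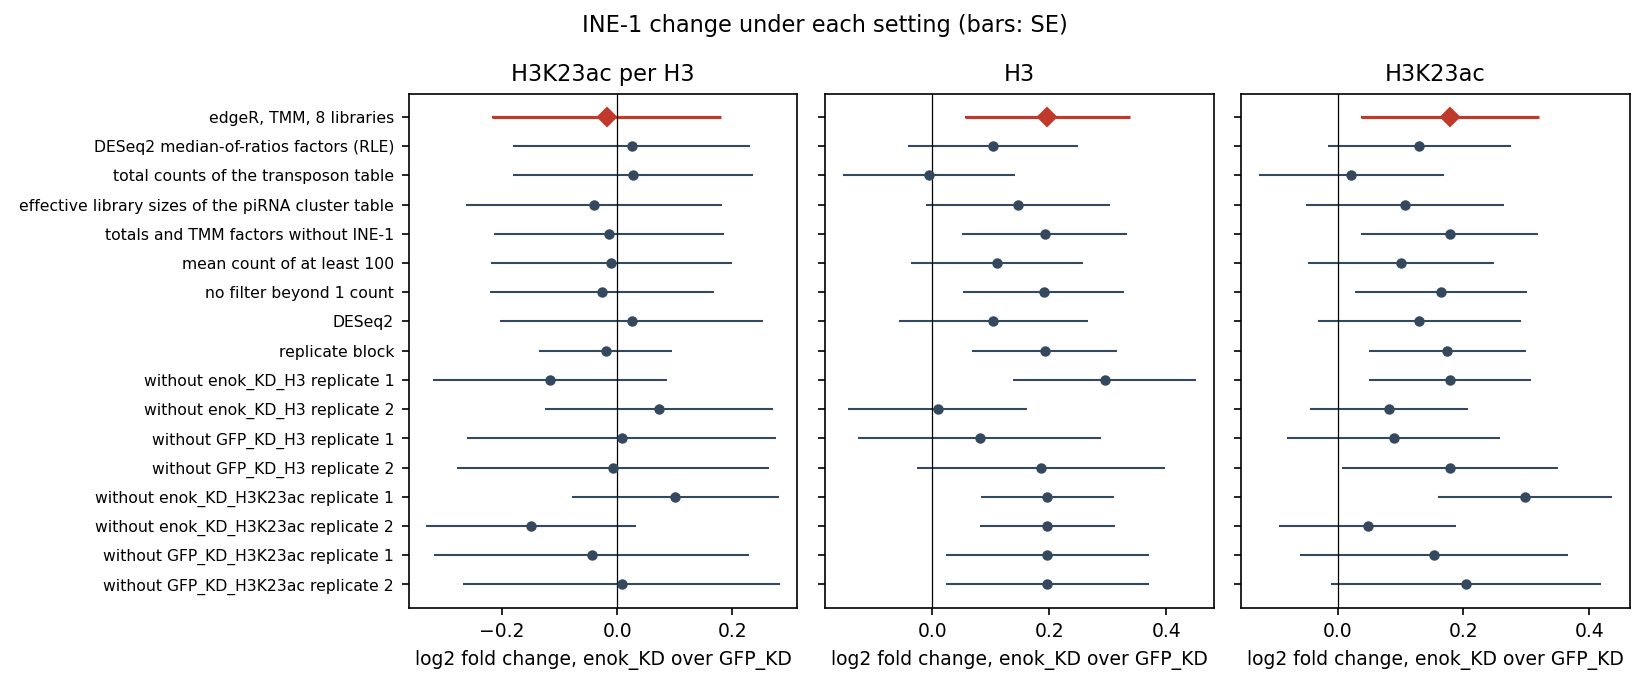
Fitted log2 fold change of enok_KD over GFP_KD at INE-1 for H3K23ac per H3, H3 and H3K23ac under each setting (rows; bars are SE). Values for the ratio lie on both sides of 0, between −0.15 and 0.10, and those for each antibody fall close to 0 under total count scaling.

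Scaling by the piRNA clusters of the same libraries gave a different picture for raw totals. INE-1 had 72.8 and 92.7 H3K23ac reads per 100 cluster reads in enok_KD, both below the 98.7 and 102.3 in GFP_KD. However, cluster 92 alone held 38.1% and 43.0% of the H3K23ac cluster reads in enok_KD, against 25.5% and 25.1% in GFP_KD. With cluster 92 left out of the total, INE-1 had 117.7 and 162.8 H3K23ac reads per 100 cluster reads in enok_KD, on either side of the 132.5 and 136.7 in GFP_KD. For H3, INE-1 had 34.8 and 40.8 reads per 100 reads of all clusters in enok_KD, against 38.5 and 38.7 in GFP_KD. The corresponding H3 values without cluster 92 were 43.1 and 50.2 in enok_KD and 49.1 and 49.2 in GFP_KD. The separation of H3K23ac seen with all clusters was thus absent once that cluster was left out, an exclusion chosen after its values were seen.

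At INE-1 the enok_KD replicates differed from each other about as much as the 2 knockdowns did in the fit. In enok_KD the share of INE-1 in replicate 2 was 1.24 times that in replicate 1 for H3 and 1.25 times for H3K23ac, as compared with 1.00 and 1.02 times in GFP_KD. On the normalised log2 scale, replicate 2 exceeded replicate 1 by 0.20 for H3 and 0.25 for H3K23ac in enok_KD, against −0.022 and 0.052 in GFP_KD. INE-1 was not exceptional in this, since 138 of 203 elements for H3 and 125 for H3K23ac differed by more between the enok_KD replicates. Because both antibodies moved alike at INE-1, the ratio within a same-number pair hardly differed. R1_DM went the other way, with −0.45 for H3 and −0.76 for H3K23ac. Across the 203 elements, which share libraries and are not independent, these replicate differences of H3 and H3K23ac correlated at a Pearson coefficient of 0.70 in enok_KD and −0.020 in GFP_KD. What set the enok_KD replicates apart was not tested.

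**Figure D4:**
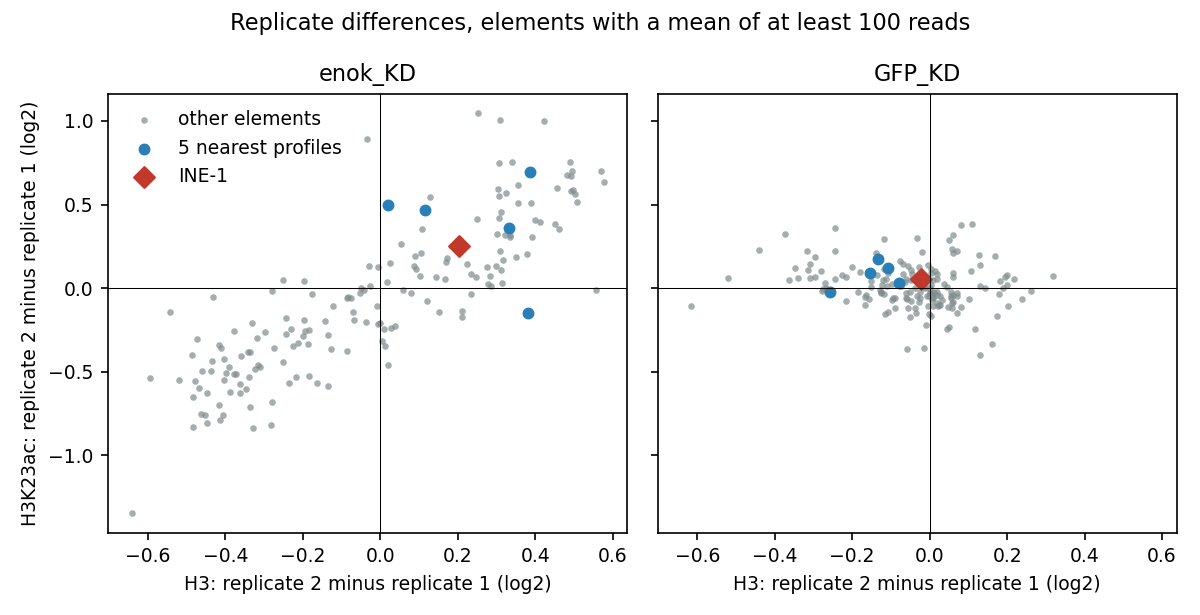
Difference between replicates 2 and 1 in log2 normalised reads for H3 (x axis) and H3K23ac (y axis) in enok_KD (left) and GFP_KD (right), for elements with a mean of at least 100 reads; INE-1 is the red diamond and the 5 elements with the nearest profile are blue. INE-1 lies at 0.20 and 0.25 in enok_KD, along the diagonal spread of the other elements, and at −0.022 and 0.052 in GFP_KD.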

How the data were processed

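Per the study's methods and the submitters' processing notes, reads were trimmed with Trimmomatic and aligned to dm3 with Bowtie2 2.2.1 without mismatches, and only unique mappers were kept. The notes also name bedtools, without its role. INE-1 copies that are identical over a read are therefore not represented. The authors deposited read counts per transposon element and per piRNA cluster for 8 libraries in 4 tables, neither normalized nor pooled. Which program counted the reads, the repeat annotation and treatment of duplicates are not given in the sources used here. The cluster tables also hold the authors' own comparison of the knockdowns, which was not used. No per-library column was left without a library.

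Elements with a mean of at least 10 reads (203 of 215) were fitted in R 4.3.3 by edgeR 4.0.16 (quasi-likelihood), with TMM factors of 0.903 to 1.10, 4 group means and no covariate. Ratios had an offset of 0.5. Adjusted p-values are Benjamini-Hochberg values over these elements. The script was tested on simulated data. With 2 libraries per group, an exact two-sided permutation test cannot go below 0.333, so p-values rest on spread shared across elements, and the study describes the replicates as independent, without saying whether both antibodies were used on the same chromatin. The alternatives were other scalings and filters, DESeq2 1.42.0, a replicate block and leaving out each library. INE-1, the element lists and the alternatives were chosen with earlier results of these data known. Besides INE-1, the elements named were the 9 others with the highest shares, PENELOPE and the PROTOP entries. The neighbours in the order of ratios and the 5 nearest profiles were also named. Helitron1_DM, cluster 92 and the satellite entries other than SAR_DM were named after their values were seen. No INE-1 sequence was used here.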

Additional observations from a re-analysis of the deposited data

How the results depend on the processing

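INE-1 was called in none of the 3 comparisons under any of the 16 alternatives, with adjusted p-values of 0.595 to 0.990 for the ratio, 0.209 to 0.996 for H3 and 0.240 to 0.999 for H3K23ac (edgeR or DESeq2). The sign of the ratio turned in 7 alternatives, among them DESeq2 size factors (0.025), total counts (0.028) and DESeq2 (0.025), and that of H3 turned under total counts (−0.0059). Leaving out each library gave −0.15 to 0.10 for the ratio, 0.0092 to 0.30 for H3 and 0.048 to 0.30 for H3K23ac. The log2 ratio at INE-1 was 0.98 to 1.23 in enok_KD and 1.00 to 1.15 in GFP_KD without single libraries, and 1.86 in enok_KD and 1.91 in GFP_KD with library sizes of the cluster table, which moved the median element by 0.76 and 0.79. With entries labelled RNA, Satellite or Unknown left out, the H3K23ac share was 9.99% in enok_KD and 9.89% in GFP_KD.

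The number of elements called depended more on the setting. For H3 it was 2 under DESeq2 size factors, 48 under total counts, 3 under library sizes of the cluster table, 0 with a mean of at least 100 reads and 26 with DESeq2. DESeq2 called 5 for the ratio and 4 for H3K23ac. Without single libraries the counts were 0 to 22 for the ratio, 0 to 41 for H3 and 0 to 10 for H3K23ac, the highest of each without enok_KD H3K23ac replicate 2. For H3 it was 41 without that library, 39 without enok_KD H3K23ac replicate 1, 4 without enok_KD H3 replicate 1, 1 without GFP_KD H3 replicate 1 and 0 without any of the other 4. With a replicate block, 65 elements were called for the ratio (36 higher and 29 lower in enok_KD), 7 for H3 (all higher) and 1 for H3K23ac. Of the 10 with the highest shares, the block called SAR_DM (−0.94), FW_DM (0.38), DOC (0.46) and NOMAD_I (0.43) for the ratio. At INE-1 the block gave −0.020 ± 0.12 (SE; 95% interval −0.25 to 0.21; edgeR adjusted p = 0.887). The block fits more coefficients to the same libraries. Its interval and calls for the ratio therefore rest even more on spread shared across elements than those of the main fit. Numbers were not treated as pairs in the main comparison, since replicate differences of H3 and H3K23ac correlated in enok_KD (0.70) but not in GFP_KD (−0.020), and no source states a pairing. Those of H3 ran in opposite directions in the 2 knockdowns (−0.49). With a replicate block of crossed numbers, added after seeing the data, 33 elements were called for H3 (27 higher and 6 lower), against 7 with same numbers.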
